A study of Mus musculus with 24 samples.

Results

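Crypts that had lost both Notchless and Apc were compared with crypts that had lost Apc alone, 48 h after induction. The double-knockout group, labelled d2_ApccKO;NlecKO, held 3 mice, and the ApccKO group, labelled d2_ApccKO, held 3 mice, so 6 of the 24 libraries of the series were compared, taken by their titles. Both groups carried the conditional knockout of Apc, and the double knockout carried in addition the conditional knockout of Nle1, the gene of the Notchless protein. All mice were 5 to 10 weeks old and had received tamoxifen at 56 mg/kg on each of 3 days, and polyadenylated RNA was sequenced from crypts of the jejunum. Each library came from its own mouse. Neither the promoter that drives the recombinase nor the targeted exons is given in the sources used here. For comparison, the NlecKO and Control mice of day 2, which kept Apc, and the double-knockout and ApccKO mice of day 1 (24 h) were used, with 3 mice in each group.

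Notchless is an assembly factor of the large ribosomal subunit: it helps to remodel the precursor particle in the nucleus before export. When large-subunit assembly fails, free ribosomal proteins can bind Mdm2, the ligase that degrades p53, and p53 then activates genes of cell cycle arrest, death, metabolism and DNA repair. The APC protein belongs to the complex that marks beta-catenin for destruction, and its loss turns on Wnt target genes in crypts, the pockets where intestinal stem cells divide. Stem cells at the crypt base express Lgr5 and Olfm4, and their daughters divide further before they become enterocytes or secretory cells.

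The 6 libraries held 18.01 to 23.65 M estimated counts, and 16552 of 37620 genes passed a filter on low counts. Levels are given in CPM (counts per M counts of a library, after TMM scaling), 1 value per mouse, and differences as log2 fold changes ± SE of the double knockout over ApccKO. A mean is given ± SD over the 3 libraries of its group. Each gene was tested by the quasi-likelihood method of edgeR, its p was adjusted by Benjamini and Hochberg across the 16552 genes, and a gene with an adjusted p under 0.05 is called. Counts "before adjustment" take genes with a raw p under 0.05. Libraries of 1 group correlated at 0.985 to 0.988 across genes, and libraries of different groups at 0.957 to 0.966. In each group 1 mouse was male and the others female, read from Y-linked genes. Markers of the crypt base were abundant in all 6 libraries: summed Paneth cell markers stood at 9078 to 17725 CPM in the double knockout and 9787 to 10780 CPM in ApccKO crypts. The targeted transcript Nle1 (ENSMUSG00000020692) had 10.97, 9.60 and 8.83 CPM in double-knockout crypts, against 36.2, 34.3 and 34.2 CPM in ApccKO crypts (-1.82 ± 0.16, adjusted p = 1.8e-07), and the groups lay far apart. Apc (ENSMUSG00000005871) had 141, 148 and 142 CPM in double-knockout crypts, against 140.2, 129 and 135 CPM in ApccKO crypts and was not called (log2 fold change 0.09 ± 0.08, adjusted p = 0.41). Counts over a whole gene do not show the deletion of a part, so the Apc label was not checked by its own transcript.

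Loss of Notchless on top of Apc changed the expression of a large part of the genes tested. Of 16552 genes, 5775 (34.9%) were called, 3221 (19.5%) of them higher and 2554 (15.4%) lower in the double knockout. At least 2-fold changes were found for 1086 higher and 586 lower genes, and at least 4-fold changes for 250 higher and 38 lower genes. In 4955 genes (29.9%) all 3 double-knockout libraries lay above all 3 ApccKO libraries, and in 3854 genes (23.3%) all lay below. The median log2 fold change over all genes was 0.05. The higher share of the called genes, 55.8%, was 45.8% under a stricter filter on low counts and 46.8% with only the libraries of day 2 fitted, with the median of all genes at 0.00 in both.

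Most of the genes raised furthest had low levels in ApccKO crypts. Gria3, a subunit of AMPA-type glutamate receptors, had 14.5, 16.7 and 16.2 CPM in double-knockout crypts, against 0.39, 0.135 and 0.14 CPM in ApccKO crypts (5.63 ± 0.65, adjusted p = 3.5e-06). Ano3, of the anoctamin family of channels and scramblases, had 48.5, 59.8 and 56.6 CPM in double-knockout crypts, against 1.21, 1.31 and 0.884 CPM in ApccKO crypts (5.48 ± 0.66, adjusted p = 8.1e-06). Cpt1c, a member of the carnitine palmitoyltransferase family, had 32.1, 31.9 and 35.9 CPM in double-knockout crypts, against 1.39, 0.496 and 1.02 CPM in ApccKO crypts (4.97 ± 0.43, adjusted p = 1.7e-07). In each of these 3 genes the double-knockout libraries lay close together. Lack of overlap between the groups was a condition for naming genes here. Krt15, a keratin of epithelial progenitor cells, had 55.7, 63.2 and 73.6 CPM in double-knockout crypts, against 1.69, 2.62 and 2.47 CPM in ApccKO crypts (4.77 ± 0.28, adjusted p = 1.1e-09). Anxa8, an annexin known as a marker of fetal-like intestinal epithelium, had 45.4, 55.6 and 39.1 CPM in double-knockout crypts, against 1.17, 2.30 and 1.40 CPM in ApccKO crypts (4.77 ± 0.52, adjusted p = 2.1e-06). Also raised were the carboxylesterase gene Ces2f (4.90 ± 0.40), the zinc finger gene Zfp365 (4.88 ± 0.60), the regulator of G-protein signalling Rgs5 (4.70 ± 0.48), the calcium-binding protein gene S100g (4.62 ± 0.84), the Src adaptor gene Efs (4.46 ± 0.52) and the receptor kinase gene Axl (4.43 ± 0.40), with adjusted p values of 5.2e-08 (Ces2f) to 0.0004 (S100g). S100g spread most, with 102, 259 and 239 CPM in double-knockout crypts against 5.94, 12.1 and 6.05 CPM in ApccKO crypts. Sco2, a copper chaperone of cytochrome c oxidase that p53 is known to activate, had 11.97, 13.2 and 14.4 CPM in double-knockout crypts and is listed at 0 in all 3 ApccKO libraries. It shares 89.7% of its 31-base words with other genes, chiefly Ncaph2 on the opposite strand, and its level is uncertain, so no fold is given.

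Among the genes lowered most were those of the stem cell zone. Lgr5, the R-spondin receptor that marks crypt base stem cells, had 41.7, 38.04 and 28.6 CPM in double-knockout crypts, against 258, 159 and 230.1 CPM in ApccKO crypts (-2.57 ± 0.26, adjusted p = 1.3e-06). Olfm4, a secreted glycoprotein of the same cells, had 470.01, 391 and 267 CPM in double-knockout crypts, against 1976, 1867 and 2082 CPM in ApccKO crypts (-2.39 ± 0.25, adjusted p = 1.5e-06). ApccKO replicate 2 had the lowest Lgr5 level of its group. Genes were named at this end only where the groups did not overlap, so the lack of overlap followed from the rule. Gkn3, a gastrokine, had 7.48, 3.22 and 2.60 CPM in double-knockout crypts, against 40.5, 37.4 and 34.6 CPM in ApccKO crypts (-3.04 ± 0.38, adjusted p = 9.5e-06). H19, an imprinted long noncoding RNA, had 3.45, 2.52 and 3.07 CPM in double-knockout crypts, against 31.01, 19.6 and 38.05 CPM in ApccKO crypts (-3.25 ± 0.71, adjusted p = 0.0018). Fstl4, of the follistatin-like family, had 2.62, 1.66 and 1.35 CPM in double-knockout crypts, against 19.2, 15.2 and 23.95 CPM in ApccKO crypts (-3.29 ± 0.42, adjusted p = 6.8e-06). Nos2, the inducible nitric oxide synthase, had 0.665, 1.77 and 0.987 CPM in double-knockout crypts, against 6.20, 44.2 and 10.2 CPM in ApccKO crypts (-4.06 ± 0.74, adjusted p = 0.00039), with ApccKO replicate 2 far above its group. The other genes on this end were Cym (-3.73 ± 0.59), Ifitm1 (-2.52 ± 0.46), Pcdh8 (-2.37 ± 0.40), Dpysl5 (-2.36 ± 0.56), Snn (-2.34 ± 0.26) and Vwa2 (-2.33 ± 0.22), with adjusted p values of 3.3e-07 to 0.003.

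By absolute change in CPM, a measure that is not per length, other genes led. Fcgbp, a goblet cell mucus protein, had 3367, 2416 and 3382 CPM in double-knockout crypts, against 998, 1554 and 986 CPM in ApccKO crypts (1.37 ± 0.18, adjusted p = 7.4e-06), or a mean of 696 TPM in double-knockout and 315 TPM in ApccKO crypts in the authors' table of TPM, a measure per transcript length. Akp3, an intestinal alkaline phosphatase, had 1440.1, 1777 and 2050.1 CPM in double-knockout crypts, against 159.7, 133 and 76.5 CPM in ApccKO crypts (3.83 ± 0.80, adjusted p = 0.0013). Krt8, a keratin of simple epithelia, had 3867, 4229 and 4833 CPM in double-knockout crypts, against 2305, 3090.2 and 2519 CPM in ApccKO crypts (0.71 ± 0.13, adjusted p = 0.00029), and the elongation factor gene Eef1a1 had 8290.2, 8695 and 9058 CPM in double-knockout crypts, against 6497, 6524 and 7463 CPM in ApccKO crypts (0.35 ± 0.08, adjusted p = 0.0024). Sprr2a2 rose by 1.75 ± 0.57 but shares 97.8% of its 31-base words with other genes, chiefly Sprr2a1, and lost its call without ApccKO replicate 1 or 3 or double-knockout replicate 3 (adjusted p up to 0.093). Krt8 and Eef1a1 share 36% and 51.5% of their words, chiefly with pseudogenes. On the other side stood Olfm4, with a mean of 198 TPM in double-knockout crypts against 1194 TPM in ApccKO crypts. Ptma, the prothymosin gene, which shares 31.1% of its words, had 1139, 1257 and 1151 CPM in double-knockout crypts, against 1761, 1834 and 1799 CPM in ApccKO crypts (-0.60 ± 0.12, adjusted p = 0.00084). Cps1, a urea cycle enzyme (-0.65 ± 0.11), Slc12a2, a chloride cotransporter of crypt cells (-0.73 ± 0.11), and Pigr, which carries antibodies across the epithelium (-0.76 ± 0.21), fell as well.

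**Figure D1:**
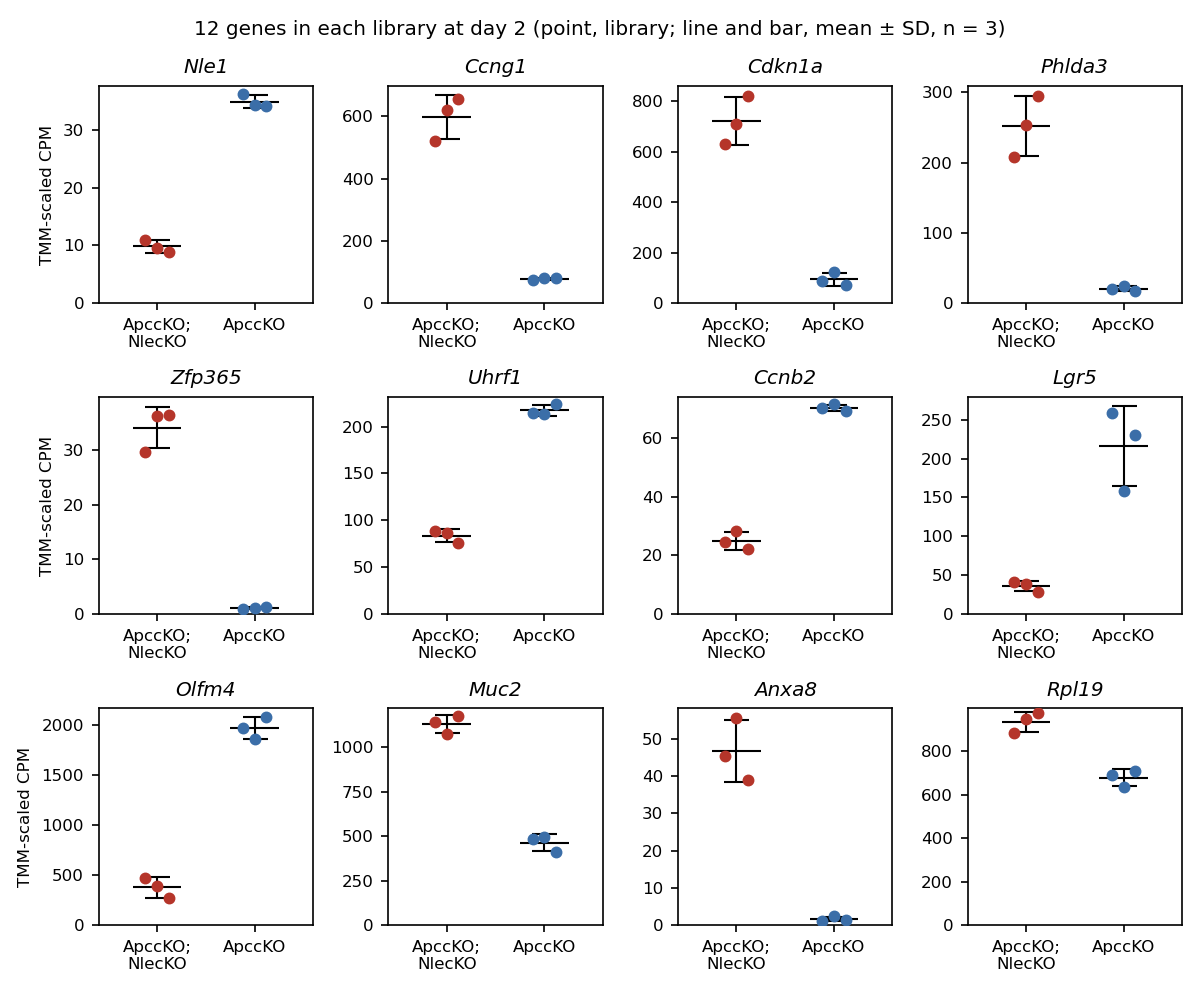
Each panel plots 1 gene in TMM-scaled CPM on a linear axis from 0, with the double-knockout libraries at left and the ApccKO libraries at right, lines for means and bars for 1 SD (n = 3). In all 12 genes the groups are apart, for example Phlda3 at 208, 254 and 294 CPM in double-knockout crypts against 20.4, 24.2 and 17.4 CPM in ApccKO crypts. The genes were picked with the results known, so their lack of overlap follows largely from the choice. Of all genes, 29.9% were higher and 23.3% lower without overlap.

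The transcript of p53 itself was not called by edgeR, while most of its known targets were higher in the double knockout. Trp53 (ENSMUSG00000059552) had 145, 149 and 150.4 CPM in double-knockout crypts, against 176, 150.2 and 177 CPM in ApccKO crypts (-0.18 ± 0.13, adjusted p = 0.32). Of 13 genes of p53 feedback and arrest, 10 were higher and 0 lower (0 lower also before adjustment and 0 lower by DESeq2), against 19.5% and 15.4% of all genes, and the median was 2.32. Of 12 tested death genes, 11 were higher and 0 lower (0 before adjustment and 0 by DESeq2; median 1.41). Of 16 genes of metabolism and repair, 12 were higher and 2 lower (median 1.58).

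Arrest and feedback genes differed by several fold between the groups. Cdkn1a (ENSMUSG00000023067), the p21 inhibitor of cyclin-dependent kinases, had 631, 711 and 822 CPM in double-knockout crypts, against 87.5, 122 and 73.03 CPM in ApccKO crypts (2.94 ± 0.22, adjusted p = 2.7e-08). Ccng1 (ENSMUSG00000020326), cyclin G1, had 519.8, 619 and 655 CPM in double-knockout crypts, against 74.8, 80.5 and 78.98 CPM in ApccKO crypts (2.94 ± 0.19, adjusted p = 3.4e-09). Zmat3, an RNA-binding protein of the p53 response, had 245, 287 and 279.5 CPM in double-knockout crypts, against 39.5, 38.5 and 37.1 CPM in ApccKO crypts (2.82 ± 0.21, adjusted p = 2.2e-08). Every double-knockout library held several times the level of every ApccKO library in these 3 genes, which were picked for a small p. Mdm2, the ligase that degrades p53, had 195, 234 and 255 CPM in double-knockout crypts, against 46.7, 49.1 and 41.4 CPM in ApccKO crypts (2.32 ± 0.18, adjusted p = 5.7e-08), and Phlda3, a brake on Akt signalling, rose most on this list (3.602 ± 0.39, adjusted p = 3.1e-06). Plk2 (2.64 ± 0.34), Trp53inp1 (2.44 ± 0.29), Btg2 (1.07 ± 0.13), Rchy1 (0.75 ± 0.11) and Mdm4 (0.51 ± 0.11) rose too. The phosphatase gene Ppm1d (0.14 ± 0.11, adjusted p = 0.36) and the kinase gene Plk3 (0.47 ± 0.23, adjusted p = 0.12) were not called.

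Among the death genes, Eda2r, a receptor of the TNF family, had 46.4, 62.6 and 72.9 CPM in double-knockout crypts, against 5.68, 7.35 and 6.98 CPM in ApccKO crypts (3.17 ± 0.30, adjusted p = 4.9e-07). Tnfrsf10b, the death receptor for TRAIL, had 46.05, 49.1 and 51.2 CPM in double-knockout crypts, against 14.7, 16.6 and 15.4 CPM in ApccKO crypts (1.64 ± 0.13, adjusted p = 4.4e-08). Perp, a membrane protein of the desmosome, had 263, 296 and 312 CPM in double-knockout crypts, against 104, 113 and 109.8 CPM in ApccKO crypts (1.42 ± 0.13, adjusted p = 2.9e-07), and Ei24 had 177, 189.9 and 196 CPM in double-knockout crypts, against 85.7, 93.2 and 82.1 CPM in ApccKO crypts (1.11 ± 0.07, adjusted p = 4.7e-09). In all 12 genes every double-knockout library lay above every ApccKO library, against 29.9% of all genes. Bax, which opens the outer mitochondrial membrane, had 330.4 ± 33.9 CPM in double-knockout and 107 ± 6.83 CPM in ApccKO crypts (1.62 ± 0.16, adjusted p = 4.9e-07), and Bbc3, which codes for Puma, 47.9 ± 2.30 CPM in double-knockout and 15.3 ± 1.13 CPM in ApccKO crypts (1.64 ± 0.26, adjusted p = 8.6e-05). Fas (2.47 ± 0.27), Aen (1.41 ± 0.19), Siva1 (1.31 ± 0.20), Pmaip1 (0.74 ± 0.22) and Apaf1 (0.32 ± 0.09) rose, and Casp8 was not called (0.21 ± 0.10, adjusted p = 0.13). Pidd1 was not analysed here.

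Genes of metabolism and repair rose over a wide range. Ephx1, microsomal epoxide hydrolase, had 307, 298 and 316 CPM in double-knockout crypts, against 36.6, 45.7 and 35.6 CPM in ApccKO crypts (2.96 ± 0.16, adjusted p = 5e-10). Dcxr, a carbonyl reductase, had 99.4, 107 and 122 CPM in double-knockout crypts, against 13.1, 17.004 and 13.1 CPM in ApccKO crypts (2.91 ± 0.15, adjusted p = 1.4e-10). Polk, a translesion DNA polymerase, had 52.8, 59.01 and 57.5 CPM in double-knockout crypts, against 12.6, 13.3 and 10.9 CPM in ApccKO crypts (2.19 ± 0.17, adjusted p = 2.7e-08), and Ercc5, a nuclease of excision repair, 63.4, 76.1 and 73.9 CPM in double-knockout crypts, against 17.91, 19.5 and 19.02 CPM in ApccKO crypts (1.91 ± 0.16, adjusted p = 9.5e-08). Zfp365 rose most on this list, with 29.7, 36.2 and 36.4 CPM in double-knockout crypts, against 0.954, 1.04 and 1.21 CPM in ApccKO crypts (4.88 ± 0.60, adjusted p = 9.6e-06). Then came the efflux pump gene Abcb1b (77.5 ± 12.5 CPM in double-knockout and 5.17 ± 1.54 CPM in ApccKO crypts, 3.88 ± 0.37), the stress hormone gene Gdf15 (125 ± 25.5 CPM in double-knockout and 8.75 ± 2.67 CPM in ApccKO crypts, 3.81 ± 0.39) and Sesn2, a sestrin that restrains mTORC1 (2.70 ± 0.23). Rps27l, a ribosomal protein paralogue that p53 activates, had 334 ± 29.8 CPM in double-knockout and 141 ± 15.05 CPM in ApccKO crypts (1.25 ± 0.13, adjusted p = 8.1e-07). The damage recognition gene Ddb2, a p53 target in human cells, fell (7.07 ± 0.747 CPM in double-knockout and 15.1 ± 1.32 CPM in ApccKO crypts, -1.08 ± 0.14, adjusted p = 9.9e-06), as did Gls2, glutaminase 2 (14.4 ± 1.42 CPM in double-knockout and 20.9 ± 2.19 CPM in ApccKO crypts, -0.54 ± 0.20, adjusted p = 0.045). On this list 1 gene was lower without ApccKO replicate 1 or 3 or any 1 double-knockout library. Ddb2 shares 20.6% of its words with its neighbour Acp2.

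Sequences in front of these genes were read from RefSeq promoters (GRCm38.p6, 250 bases upstream of each annotated start, gene strand) for the p53 consensus element, 20 bases made of 2 abutting half-sites, with its 4 core C and G bases kept and up to 2 mismatches elsewhere. The consensus is its own reverse complement, so 1 search covers both strands. Promoters of 1 chromosome were left out of this search and the later one, and shares of all genes are shares of the genes searched. Of the 42 genes on the p53 lists 32 had a promoter among those searched. A match was held by 4 of these (12.5%), against 89 of 27025 genes searched (0.329%). A match was also held by 2 of 34 genes of G2 and M phase (5.88%, Ckap2 and Kif23) and by 1 of 34 S phase genes (2.94%, Cdc6). All 4 genes rose in the double knockout, and 3 are shown with the match in capitals. It lies 195 to 176 bases before the start of Ccng1 (chr11:40755287-40755536, minus strand), 51 to 32 bases before an upstream start of Cdkn1a (chr17:29090729-29090978, plus strand), and 63 to 44 bases before that of Zfp365 (chr10:67912663-67912912, minus strand). In Rps27l it lies 117 to 98 bases before the second of its 2 starts, in a window that reaches into the gene and is not shown. Zfp365 has 2 mismatches and the other 3 have 1 each.
Ccng1: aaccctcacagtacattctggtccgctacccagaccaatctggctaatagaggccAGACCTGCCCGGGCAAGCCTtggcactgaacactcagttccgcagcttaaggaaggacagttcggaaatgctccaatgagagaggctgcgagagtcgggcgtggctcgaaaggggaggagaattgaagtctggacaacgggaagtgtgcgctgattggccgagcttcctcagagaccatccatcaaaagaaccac
Cdkn1a: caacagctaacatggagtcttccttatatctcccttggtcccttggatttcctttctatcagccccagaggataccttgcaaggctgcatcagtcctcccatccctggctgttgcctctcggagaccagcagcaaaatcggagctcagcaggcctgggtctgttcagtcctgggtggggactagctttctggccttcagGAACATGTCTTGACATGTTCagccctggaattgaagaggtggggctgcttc
Zfp365: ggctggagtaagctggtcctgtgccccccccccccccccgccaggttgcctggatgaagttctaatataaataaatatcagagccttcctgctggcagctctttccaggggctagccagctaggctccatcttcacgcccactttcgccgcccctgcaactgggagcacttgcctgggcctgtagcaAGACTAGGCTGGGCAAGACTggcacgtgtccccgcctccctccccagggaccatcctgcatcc
A match of letters describes the promoter and says nothing of binding, and no match in these 250 bases says only that the letters are not in this window.

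Genes of DNA replication and of division were lower in the double knockout almost throughout. Of 43 S phase genes, 41 fell and 0 rose by edgeR (0 before adjustment and 0 by DESeq2), and of 40 genes of G2 and M phase, 34 fell and 1 rose, against 15.4% lower and 19.5% higher of all genes. The medians were -0.91 and -0.96. Their summed levels were 1750 to 1993 CPM in the double knockout against 3374 to 3635 CPM in ApccKO crypts for S phase, and 1616 to 1929 CPM in the double knockout against 3036 to 3419 CPM in ApccKO crypts for G2 and M phase.

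Uhrf1, which maintains DNA methylation at replication, had 88.6, 85.997 and 75.5 CPM in double-knockout crypts, against 215, 214 and 224 CPM in ApccKO crypts (-1.38 ± 0.17, adjusted p = 3.8e-06). Tk1, thymidine kinase, had 24.5, 22.9 and 21.05 CPM in double-knockout crypts, against 68.7, 64.003 and 60.1 CPM in ApccKO crypts (-1.49 ± 0.18, adjusted p = 5.7e-06). Gins1, of the replicative helicase, had 8.94, 11.6 and 9.72 CPM in double-knockout crypts, against 22.5, 22.1 and 22.2 CPM in ApccKO crypts (-1.13 ± 0.14, adjusted p = 7e-06), and Pola2, of DNA polymerase alpha, 36.03, 38.3 and 35.5 CPM in double-knockout crypts, against 71.8, 64.9 and 74.2 CPM in ApccKO crypts (-0.94 ± 0.12, adjusted p = 7.3e-06). These 4 were picked for the smallest p on the list. Of all 43 S phase genes, 42 had every double-knockout library under every ApccKO library, against 23.3% of all genes. Uhrf1 shares 24.2% of its words, chiefly with Gm5648. Rrm2, the ribonucleotide reductase subunit (-0.18 ± 0.18, adjusted p = 0.47), and E2f2 (-0.28 ± 0.17, adjusted p = 0.21) were the S phase genes that did not pass. Among division genes, Ccnb2, cyclin B2, had 24.5, 28.3 and 22.1 CPM in double-knockout crypts, against 70.3, 71.7 and 69.5 CPM in ApccKO crypts (-1.49 ± 0.19, adjusted p = 8e-06). Mki67, the Ki-67 antigen of dividing cells, had 144, 163 and 133 CPM in double-knockout crypts, against 367, 309 and 347 CPM in ApccKO crypts (-1.22 ± 0.17, adjusted p = 1.3e-05). Aspm of the spindle pole had 17.5, 19.4 and 15.8 CPM in double-knockout crypts, against 46.2, 46.8 and 44.2 CPM in ApccKO crypts (-1.37 ± 0.17, adjusted p = 5.4e-06), and Racgap1, needed for cytokinesis, 42.6, 47.6 and 42.1 CPM in double-knockout crypts, against 112, 109.9 and 105 CPM in ApccKO crypts (-1.30 ± 0.16, adjusted p = 5.9e-06). Ckap2, a spindle protein, went the other way, with 35.5, 49.2 and 40.5 CPM in double-knockout crypts, against 28.2, 24.6 and 29.1 CPM in ApccKO crypts (0.61 ± 0.17, adjusted p = 0.0072), and Ect2, Anln, Kif23, Hmmr and Ube2c did not pass (adjusted p = 0.082 to 0.32).

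The promoters of these genes were searched on both strands for CCAAT, bound by the factor NF-Y, for TTTGAA, the cell cycle homology element, and for the E2F sites TTTCGCGC and TTTGGCGC. In the promoters shown no match of one overlaps a match of another. CCAAT was held by 28 of 34 G2 and M phase genes with a promoter (82.4%) and by 23 of 34 S phase genes (67.6%), against 37.5% of all genes. On the p53 lists 17 of 32 genes held it too (53.1%). TTTGAA was held by 12 of 34 G2 and M phase genes (35.3%) and by 5 of 34 S phase genes (14.7%), against 18.3% of all. TTTCGCGC was held by 5 of 34 S phase genes (14.7%) and by 1 of 34 G2 and M phase genes (2.94%), against 0.3% of all. The related E2F site TTTGGCGC was held by 3 of 34 S phase genes (8.82%) against 0.485% of all. Shown is the member of each list with the smallest p among those that hold both of its elements: Ccnb2 (chr9:70421555-70421804, minus strand) with CCAAT and TTTGAA, and Uhrf1 (chr17:56304063-56304312, plus strand) with CCAAT and TTTCGCGC, each match on either strand in capitals.
Ccnb2: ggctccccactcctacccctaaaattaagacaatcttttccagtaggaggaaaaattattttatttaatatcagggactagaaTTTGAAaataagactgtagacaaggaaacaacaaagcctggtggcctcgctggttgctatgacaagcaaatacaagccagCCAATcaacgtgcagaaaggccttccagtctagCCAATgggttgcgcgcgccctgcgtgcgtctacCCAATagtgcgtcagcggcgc
Uhrf1: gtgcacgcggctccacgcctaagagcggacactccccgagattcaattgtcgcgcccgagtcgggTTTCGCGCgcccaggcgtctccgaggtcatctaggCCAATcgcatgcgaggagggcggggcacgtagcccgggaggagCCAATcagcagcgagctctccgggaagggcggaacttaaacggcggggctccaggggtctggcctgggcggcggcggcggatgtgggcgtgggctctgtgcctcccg
Ccnb2 holds CCAAT at 3 places between 87 and 17 bases before its start, and Uhrf1 holds it at 2 places between 150 and 103 bases before the second of its 2 starts. These are descriptions of letters, not sites of binding.

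**Figure D2:**
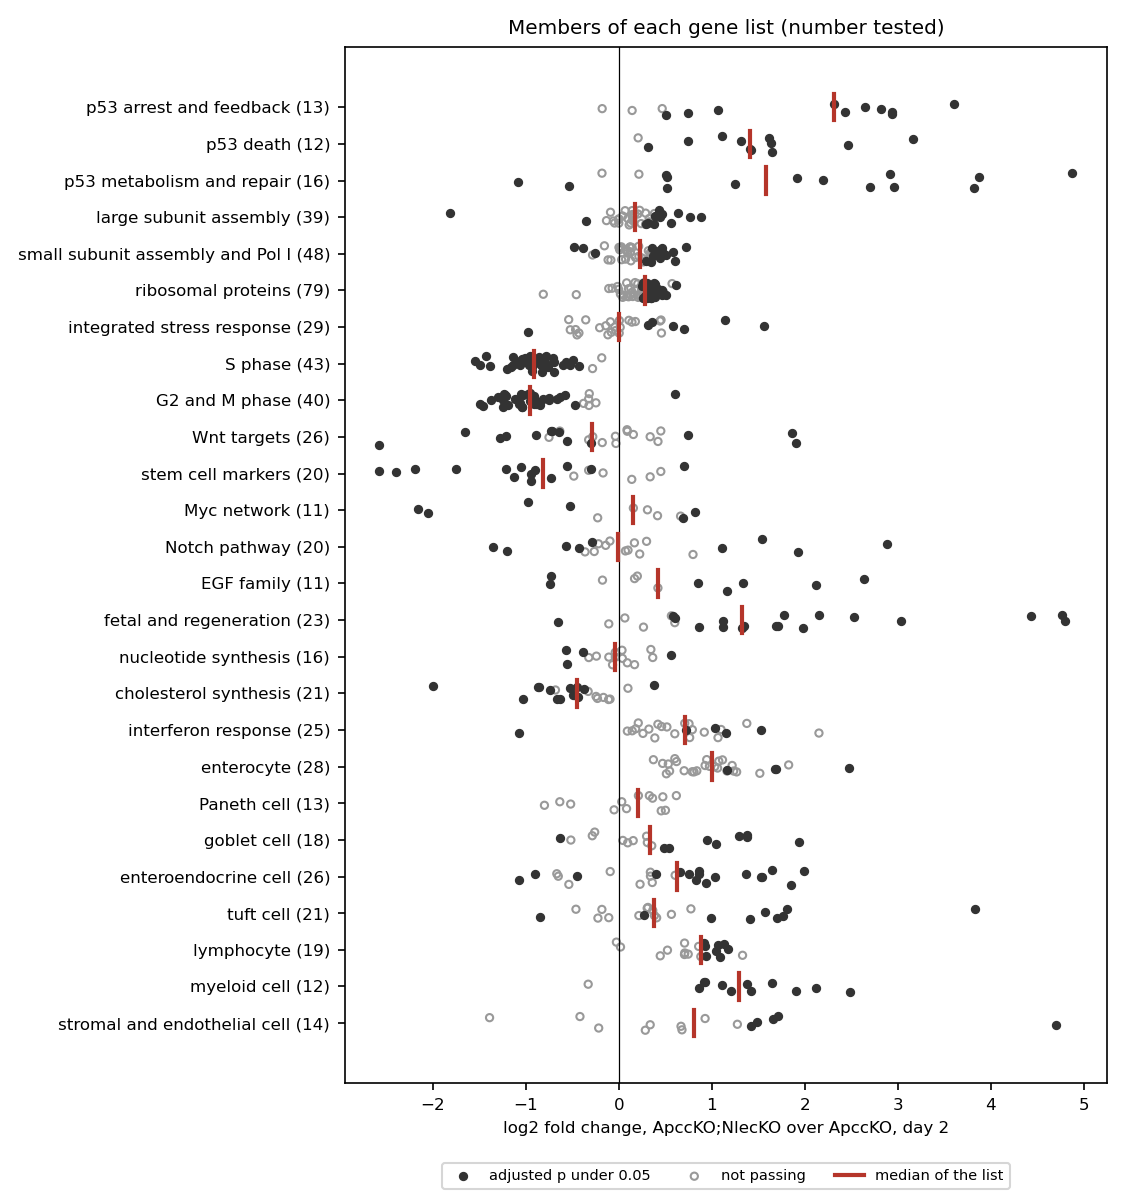
Each point is 1 tested gene of a list, placed by its log2 fold change of the double knockout over ApccKO on day 2, filled where it was called, with the list's median as a red line and the number tested in brackets. The 3 p53 lists sit at medians of 1.41 to 2.32, the cell cycle lists at -0.91 and -0.96, and the stem cell markers at -0.82.

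Stem cell markers fell while the Wnt target list split. Of 20 stem cell markers, 13 were lower and 1 higher (median -0.82, 15.4% and 19.5% of all genes). In whole-crypt RNA, a change in the number of cells of a type and a change in RNA per cell cannot be told apart, for these markers and for those of the other cell types below. Smoc2, a matrix protein of crypt base cells, had 103, 89.8 and 67.6 CPM in double-knockout crypts, against 314, 232 and 328 CPM in ApccKO crypts (-1.75 ± 0.19, adjusted p = 1.9e-06), and Aqp4, a water channel, 16.2, 13.6 and 11.02 CPM in double-knockout crypts, against 72.1, 47.8 and 67.7 CPM in ApccKO crypts (-2.19 ± 0.24, adjusted p = 2.4e-06). Rgmb (-1.13 ± 0.22), Msi1 (-0.95 ± 0.19), Igfbp4 (-0.94 ± 0.16) and Cdca7 (-0.91 ± 0.12) also fell, while Prom1 (-0.48 ± 0.37, adjusted p = 0.33) and Ascl2 (-0.32 ± 0.16, adjusted p = 0.13) were not called. Tnfrsf21 was the marker that rose (59.99 ± 2.75 CPM in double-knockout and 36.9 ± 0.377 CPM in ApccKO crypts, 0.70 ± 0.11, adjusted p = 6.8e-05). Of 26 tested Wnt targets, 10 fell and 3 rose (median -0.29), and 8 of the 27 listed are on another list too. Prox1, a homeobox factor, had 27.1, 21.995 and 20.4 CPM in double-knockout crypts, against 90.3, 54.4 and 74.6 CPM in ApccKO crypts (-1.65 ± 0.26, adjusted p = 6.6e-05). The feedback inhibitor Axin2 had 311 ± 32.9 CPM in double-knockout and 512 ± 23.7 CPM in ApccKO crypts (-0.72 ± 0.15, adjusted p = 0.00076), Nkd1 44.8 ± 13.1 CPM in double-knockout and 109 ± 17.5 CPM in ApccKO crypts (-1.28 ± 0.24, adjusted p = 0.00038), and Sox4, Lef1, Ephb3 and Znrf3 fell as well (-0.72 ± 0.18, -0.89 ± 0.24, -0.64 ± 0.17 and -0.56 ± 0.12). Sox4 shares 54.7% of its words, chiefly with the antisense gene Gm26735. Opposite to these, 2 genes of D cyclins rose. Ccnd1, which shares 22.3% of its words with LTO1, had 604, 682 and 759 CPM in double-knockout crypts, against 190.1, 179.6 and 176 CPM in ApccKO crypts (1.90 ± 0.26, adjusted p = 2.1e-05). Ccnd2 had 998, 1014 and 1112 CPM in double-knockout crypts, against 271, 343 and 245 CPM in ApccKO crypts (1.86 ± 0.20, adjusted p = 1.5e-06). Notum, a secreted Wnt inhibitor that shares 33% of its words, chiefly with its antisense gene, had 19.8 ± 2.93 CPM in double-knockout and 11.8 ± 2.06 CPM in ApccKO crypts (0.74 ± 0.26, adjusted p = 0.034), and Myc (0.16 ± 0.20, adjusted p = 0.57), Cd44 (0.42 ± 0.23, adjusted p = 0.16) and Sox9 (0.45 ± 0.20, adjusted p = 0.08) did not pass. The summed Wnt target level was 4986 to 5140 CPM in double-knockout crypts and 4497 to 5055 CPM in ApccKO crypts, and the groups overlapped. This sum includes the 2 D cyclin genes that rose, so it does not show that the other targets were unchanged.

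Genes of the fetal-like and regenerating epithelium were higher in the double knockout: 17 of 23 tested rose and 1 fell (median 1.32), against 19.5% and 15.4% of all genes. Gja1, the gap junction protein connexin 43, had 6.36, 10.4 and 9.87 CPM in double-knockout crypts, against 0.347, 0.0451 and 0.279 CPM in ApccKO crypts (4.80 ± 0.53, adjusted p = 1.9e-06). Axl had 9.81, 9.50 and 13.9 CPM in double-knockout crypts, against 0.217, 0.541 and 0.512 CPM in ApccKO crypts (4.43 ± 0.40, adjusted p = 1.7e-07). Anxa2, an annexin, had 1036, 1084 and 1218 CPM in double-knockout crypts, against 437, 606 and 495 CPM in ApccKO crypts (1.12 ± 0.19, adjusted p = 0.00014). Ly6a, which codes for Sca-1, had 185 ± 55.01 CPM in double-knockout and 32.1 ± 5.13 CPM in ApccKO crypts (2.53 ± 0.61, adjusted p = 0.0037), and the alarmin gene Il33 87.3 ± 11.3 CPM in double-knockout and 10.6 ± 5.46 CPM in ApccKO crypts (3.03 ± 0.63, adjusted p = 0.0012). The YAP target Ctgf rose (2.16 ± 0.51) while Amotl2, another YAP target, fell (-0.65 ± 0.15, adjusted p = 0.0019), and Clu, clusterin, was not called (244 ± 38.4 CPM in double-knockout and 264 ± 58.6 CPM in ApccKO crypts, -0.11 ± 0.40, adjusted p = 0.86). Ly6a shares 31.9% of its words with other genes, chiefly Ly6c1. Several genes on the list are also expressed by stromal and immune cells, whose markers were higher in the same libraries, as given below, and their part in these values was not tested.

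Ligands and receptors of the EGF family moved in both directions. Ereg, which codes for epiregulin, had 28.4, 40.99 and 44.3 CPM in double-knockout crypts, against 4.77, 7.94 and 5.35 CPM in ApccKO crypts (2.63 ± 0.36, adjusted p = 1.8e-05), and Areg, for amphiregulin, 162 ± 36.9 CPM in double-knockout and 37.1 ± 7.32 CPM in ApccKO crypts (2.12 ± 0.38, adjusted p = 0.00032). Btc, for betacellulin, had 72.6, 83.3 and 88.3 CPM in double-knockout crypts, against 33.1, 31.7 and 31.9 CPM in ApccKO crypts (1.33 ± 0.24, adjusted p = 0.0003), and their receptor Egfr 73.1, 84.9 and 90.4 CPM in double-knockout crypts, against 34.7, 37.3 and 38.3 CPM in ApccKO crypts (1.17 ± 0.12, adjusted p = 6.2e-07). Lrig1, an inhibitor of the receptor, had 249.5, 261 and 205 CPM in double-knockout crypts, against 402, 367 and 418 CPM in ApccKO crypts (-0.73 ± 0.13, adjusted p = 0.00023), and Erbb3 fell as well (-0.75 ± 0.17). In all 5 of 11 tested genes rose, among them Hbegf (0.86 ± 0.23), and 2 fell. Of all genes, 19.5% were higher and 15.4% lower. The lower share of the EGF list and the higher shares of the Notch and Myc lists below lay near these. In the Notch pathway 4 of 20 rose and 5 fell (median -0.01, mean 0.21), with 3 lower without ApccKO replicate 2. The receptor Notch3 had 61.01, 67.2 and 75.97 CPM in double-knockout crypts, against 8.50, 7.53 and 11.3 CPM in ApccKO crypts (2.89 ± 0.41, adjusted p = 3.5e-05). The ligand genes Jag1 (54.7 ± 7.21 CPM in double-knockout and 18.7 ± 2.11 CPM in ApccKO crypts, 1.54 ± 0.20) and Jag2 (79.6 ± 7.79 CPM in double-knockout and 20.8 ± 1.20 CPM in ApccKO crypts, 1.93 ± 0.30) rose, while Dll1 (-0.43 ± 0.12), Dll4 (-0.56 ± 0.12) and the glycosyltransferase gene Lfng, with 15.5, 14.6 and 11.8 CPM in double-knockout crypts, against 35.04, 35.9 and 36.7 CPM in ApccKO crypts (-1.36 ± 0.17, adjusted p = 5.2e-06), fell. In the Myc network 4 of 11 fell and 2 rose, with a positive median (0.16) and a negative mean (-0.26). Mycl1 had 31.9, 23.2 and 19.4 CPM in double-knockout crypts, against 103, 115 and 117 CPM in ApccKO crypts (-2.16 ± 0.25, adjusted p = 4.6e-06), and Mxd3, a Max partner of late S phase, 1.25, 1.18 and 1.04 CPM in double-knockout crypts, against 5.29, 4.83 and 5.26 CPM in ApccKO crypts (-2.06 ± 0.22, adjusted p = 9.8e-07), whereas Mxd4 (0.69 ± 0.09) and Mlx (0.82 ± 0.12) rose.

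Part of the genes that make ribosomes rose by small amounts. Of all genes, 19.5% were higher and 15.4% lower. Of 39 tested genes of large-subunit assembly, 11 were higher and 2 lower, Nle1 itself and Pelp1 (-0.36 ± 0.13), with a median of 0.17, and 1 was lower without ApccKO replicate 1 or 3 or any 1 double-knockout library. Brix1 had 88.4, 112 and 109 CPM in double-knockout crypts, against 56.03, 55.5 and 55.7 CPM in ApccKO crypts (0.89 ± 0.14, adjusted p = 6.3e-05), and Nmd3, the export adaptor of the large subunit, 59.3, 73.6 and 78.3 CPM in double-knockout crypts, against 43.2, 38.02 and 43.3 CPM in ApccKO crypts (0.76 ± 0.13, adjusted p = 0.00013). Mki67ip had 78.5, 81.9 and 97.02 CPM in double-knockout crypts, against 60.2, 48.9 and 65.2 CPM in ApccKO crypts (0.56 ± 0.12, adjusted p = 0.001). Noc2l was not analysed here. Of 48 genes of small-subunit assembly and RNA polymerase I, 15 rose and 3 fell (median 0.23). Only 1 fell without ApccKO replicate 1 or double-knockout replicate 1 or 2. Utp20, of the processome of the small subunit, had 171, 209 and 202 CPM in double-knockout crypts, against 127, 109.9 and 115 CPM in ApccKO crypts (0.73 ± 0.18, adjusted p = 0.0034), Rrn3, an initiation factor of polymerase I, rose by 0.45 ± 0.10 and Ltv1 by 0.39 ± 0.09, while Ubtf, the upstream binding factor, had 156, 159 and 150.2 CPM in double-knockout crypts, against 201, 208 and 198 CPM in ApccKO crypts (-0.38 ± 0.08, adjusted p = 0.0011). Of 79 ribosomal protein genes, 42 rose and 0 fell by edgeR (0 lower before adjustment and 0 by DESeq2), with a median of 0.29. The summed level was 52246 to 59425 CPM in the double knockout against 44942 to 47838 CPM in ApccKO crypts, without overlap. Rpl19 had 884, 947 and 975 CPM in double-knockout crypts, against 689.5, 635 and 711 CPM in ApccKO crypts (0.46 ± 0.10, adjusted p = 0.00095), Rps7 941, 1077 and 1101 CPM in double-knockout crypts, against 737, 736 and 794 CPM in ApccKO crypts (0.46 ± 0.09, adjusted p = 0.00044). Many ribosomal protein genes share words with pseudogenes, 58.8% in Rpl19 and 30.6% in Rps7. Without double-knockout replicate 1, 1 ribosomal protein gene fell. The counts depended on single libraries: without double-knockout replicate 3 the counts of higher genes were 20 ribosomal protein and 6 small-subunit genes, without replicate 2 they were 27 and 7, without ApccKO replicate 1 they were 23 and 9, and without ApccKO replicate 3 the small-subunit count was 9. With only the 12 libraries of day 2 fitted 22 ribosomal protein genes were higher.

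In the integrated stress response, the programme that slows translation under stress, 6 of 29 tested genes rose and 1 fell (median 0.00). The share of higher genes was near the 19.5% of all genes, and 15.4% of all genes were lower. Atf4, its central transcription factor, had 220.4, 230.1 and 238 CPM in double-knockout crypts, against 165, 142 and 153 CPM in ApccKO crypts (0.58 ± 0.09, adjusted p = 3.3e-05). Ddit3, which codes for CHOP, had 14.6, 14.2 and 14.2 CPM in double-knockout crypts, against 6.51, 6.68 and 6.09 CPM in ApccKO crypts (1.15 ± 0.15, adjusted p = 1.1e-05). Sars, Cebpb, Nars and Stc2 rose (0.35 ± 0.09, 0.70 ± 0.21, 0.31 ± 0.10 and 1.56 ± 0.38), and Chac1 fell (1.46 ± 0.605 CPM in double-knockout and 2.96 ± 0.996 CPM in ApccKO crypts, -0.98 ± 0.32, adjusted p = 0.021), while 0 genes of the list were lower by edgeR without ApccKO replicate 1 or 3 or double-knockout replicate 3. Of 16 genes of nucleotide synthesis, 3 fell and 1 rose (2 rose without double-knockout replicate 1), with Paics (-0.57 ± 0.13) and Pfas (-0.56 ± 0.13) lower and Adss (0.56 ± 0.13) higher. Ppat, the first enzyme of purine synthesis, fell (-0.38 ± 0.13, adjusted p = 0.025) but lost its call without replicate 1 or 3 of either group. Cholesterol synthesis and uptake was lower, with 12 of 21 tested genes down and 1 up (median -0.45). Pmvk, phosphomevalonate kinase, had 13.05, 14.97 and 13.3 CPM in double-knockout crypts, against 23.4, 30.9 and 30.6 CPM in ApccKO crypts (-1.03 ± 0.13, adjusted p = 6.5e-06). Dhcr7, of the last step, had 42.8, 39.5 and 36.8 CPM in double-knockout crypts, against 69.7, 67.8 and 78.3 CPM in ApccKO crypts (-0.85 ± 0.14, adjusted p = 0.00011). Sqle (-0.64 ± 0.12) and Fdps (-0.87 ± 0.13, with 27.9% of its words shared) also fell. Hmgcs1 was not analysed here.

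Summed markers of goblet, enteroendocrine, tuft, enterocyte, lymphocyte, myeloid and stromal cells lay higher in all 3 double-knockout libraries than in all 3 ApccKO libraries. The Paneth cell sums overlapped. The counts of single markers that passed are given for each list, beside 19.5% of all genes higher and 15.4% lower. Goblet cell markers summed to 5697 to 7201 CPM in the double knockout against 2649 to 3466 CPM in ApccKO crypts, and 8 of 18 rose and 1 fell. Muc2, the gel-forming mucin, had 1144, 1072 and 1174 CPM in double-knockout crypts, against 486, 495 and 409 CPM in ApccKO crypts (1.29 ± 0.14, adjusted p = 1.1e-06). Tff3, a trefoil peptide, had 465, 377 and 424 CPM in double-knockout crypts, against 141, 185 and 162 CPM in ApccKO crypts (1.38 ± 0.12, adjusted p = 9e-08), and Agr2, which folds mucin, 282, 286 and 240.2 CPM in double-knockout crypts, against 124, 152 and 142 CPM in ApccKO crypts (0.95 ± 0.14, adjusted p = 2.3e-05). Zg16 rose most (1.94 ± 0.28), and Clca1, which shares 40.6% of its words, fell (-0.63 ± 0.24, adjusted p = 0.046). On the goblet list 0 were lower by edgeR without ApccKO replicate 1 or 3 or any 1 double-knockout library. Of 26 enteroendocrine markers, 14 rose and 3 fell. The hormone genes Gip (81.9 ± 8.04 CPM in double-knockout and 26.1 ± 4.41 CPM in ApccKO crypts, 1.65 ± 0.16, adjusted p = 3.3e-07), Sst (28.8 ± 5.999 CPM in double-knockout and 7.90 ± 2.53 CPM in ApccKO crypts, 1.85 ± 0.24), Cck (1.54 ± 0.28) and Pyy (1.99 ± 0.41) rose, whereas the factors of early enteroendocrine cells Neurog3 (5.04 ± 0.721 CPM in double-knockout and 10.7 ± 4.02 CPM in ApccKO crypts, -1.08 ± 0.30, adjusted p = 0.0094), Nkx2-2 (-0.90 ± 0.29) and Neurod1 (-0.45 ± 0.16) fell. Without ApccKO replicate 1, 0 of the list were lower by edgeR, and without double-knockout replicate 1, 1 was. Of 21 tested tuft cell markers, 8 rose and 1 fell, and 5 were higher without ApccKO replicate 2 or 3 or double-knockout replicate 1. On this list 0 were lower by edgeR without double-knockout replicate 2. Alox5, 5-lipoxygenase, had 2.95, 5.04 and 4.83 CPM in double-knockout crypts, against 0.217, 0.271 and 0.14 CPM in ApccKO crypts (3.83 ± 0.38, adjusted p = 5.7e-07), and Dclk1 5.98, 3.38 and 3.69 CPM in double-knockout crypts, against 1.43, 1.58 and 1.21 CPM in ApccKO crypts (1.57 ± 0.37, adjusted p = 0.003).

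Enterocyte markers summed to 6216 to 11096 CPM in the double knockout against 3532 to 6122 CPM in ApccKO crypts. All 28 had a positive log2 fold change (median 1.003), but only 4 passed, a smaller share than the 19.5% of all genes. Alpi, intestinal alkaline phosphatase, had 799, 807 and 991 CPM in double-knockout crypts, against 162, 207 and 99.3 CPM in ApccKO crypts (2.47 ± 0.56, adjusted p = 0.0023). Mep1b (1.69 ± 0.52), Mttp (1.16 ± 0.41) and Sis (1.68 ± 0.63) also passed, each not in every alternative (adjusted p up to 0.079, 0.13 and 0.22). The count ran between 1 and 11. It was 1 without ApccKO replicate 1 or 3, 2 without double-knockout replicate 1 or 3, 8 without ApccKO replicate 2 and 11 by DESeq2. Paneth cell markers had 0 of 13 called by edgeR (0 before adjustment and 0 by DESeq2). Lymphocyte markers summed to 137 to 183 CPM in the double knockout and 78.1 to 92.0 CPM in ApccKO crypts. Myeloid markers summed to 48.2 to 61.6 CPM in the double knockout and 30.3 to 42.7 CPM in ApccKO crypts, and stromal and endothelial markers to 47.6 to 76.8 CPM in the double knockout and 21.2 to 37.5 CPM in ApccKO crypts. For each of these 3 lists the groups did not overlap (exact permutation test, two-sided p = 0.1, the smallest that 3 against 3 allow). Of 19 lymphocyte markers 8 rose (13 by DESeq2), of 12 tested myeloid markers 11, of 14 tested stromal and endothelial markers 5, and 0 fell on any of the 3 lists by edgeR and by DESeq2 (before adjustment, at p under 0.05, 1 stromal marker fell). By edgeR 1 stromal marker was lower without ApccKO replicate 1 and with only the libraries compared. Without ApccKO replicate 1, 7 myeloid markers rose. Cd3e, of the T cell receptor complex, had 6.44, 6.97 and 5.46 CPM in double-knockout crypts, against 3.51, 2.84 and 3.35 CPM in ApccKO crypts (0.94 ± 0.26, adjusted p = 0.0075). C1qa, of macrophages, had 2.37, 1.61 and 2.91 CPM in double-knockout crypts, against 0.26, 0.316 and 0.419 CPM in ApccKO crypts (2.49 ± 0.42, adjusted p = 0.00014). Rgs5, a marker of pericytes, had 18.4, 11.5 and 13.7 CPM in double-knockout crypts, against 0.564, 0.496 and 0.326 CPM in ApccKO crypts (4.70 ± 0.48, adjusted p = 6.2e-07), a larger difference than the collagen genes Col3a1 (1.66 ± 0.54) and Col1a1 (1.48 ± 0.50), which lost their calls without ApccKO replicate 2 or 3 or double-knockout replicate 3. The 9 stromal and endothelial markers that missed the filter include Pdgfra, Myh11, Cdh5 and Kdr. Fewer rose without single libraries: 4 lymphocyte markers without ApccKO replicate 1 or 3 or double-knockout replicate 1 and 5 without ApccKO replicate 2, and 2 stromal markers without ApccKO replicate 2 or 3 and 3 without double-knockout replicate 3. Interferon response genes had 4 of 25 higher and 1 lower (median 0.71), no more than the 19.5% of all genes, although 24 had a positive log2 fold change. The count of higher genes depended on the fit. It was 7 by DESeq2, 11 with only the libraries compared fitted and 12 with only the libraries of day 2. Tap1, the peptide transporter, had 115, 117 and 162 CPM in double-knockout crypts, against 44.1, 45.2 and 46.7 CPM in ApccKO crypts (1.53 ± 0.23, adjusted p = 4.6e-05). Bst2 (1.15 ± 0.40) lost its call without several single libraries. On this list 1 gene was higher without ApccKO replicate 1 or double-knockout replicate 3, 2 without ApccKO replicate 2 or 3 or double-knockout replicate 1, and 13 in a fit without 3 libraries of day 1 that stood apart.

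**Figure D3:**
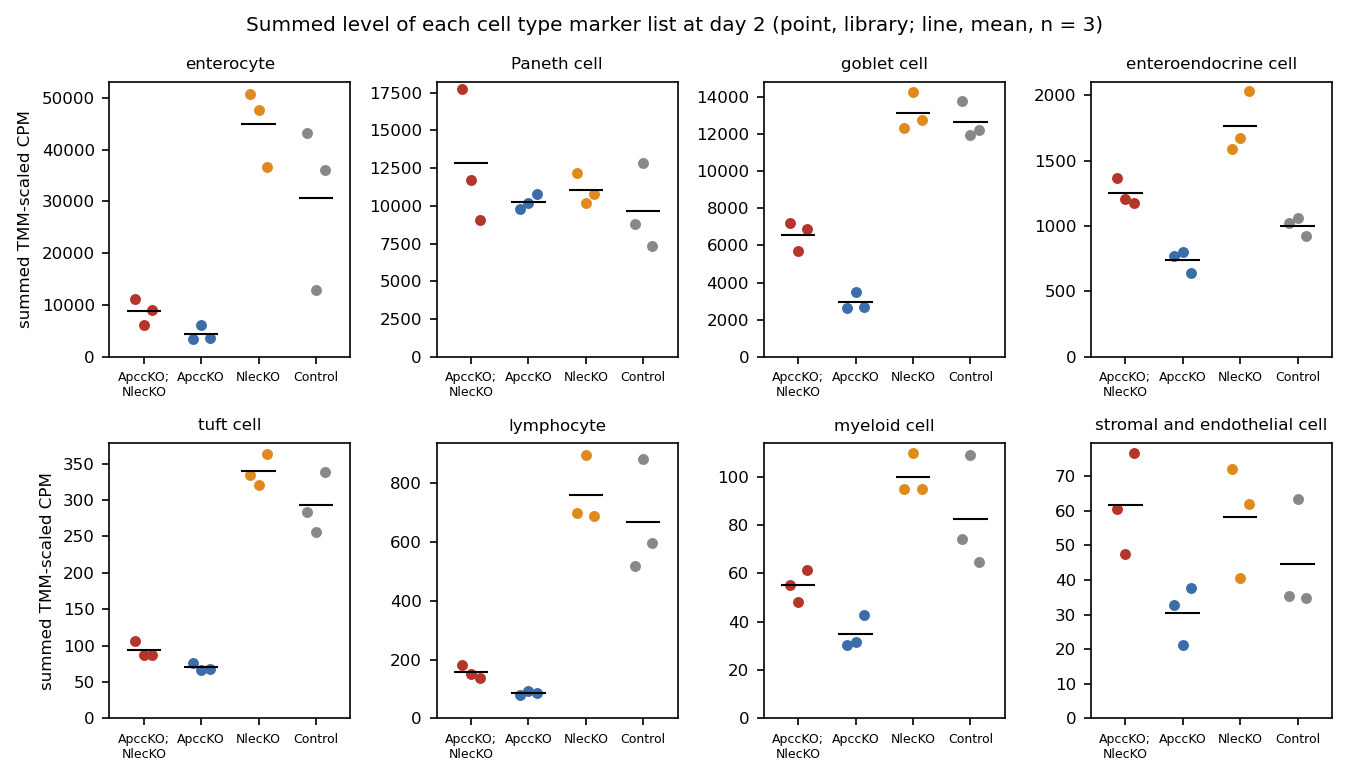
Each panel sums 1 list of cell type markers in TMM-scaled CPM for the double knockout, ApccKO, NlecKO and Control at day 2, with a point per library, a line at the mean (n = 3) and a linear axis from 0. Goblet, lymphocyte and tuft cell sums are higher in the double knockout than in ApccKO crypts, and lower than in either group with intact Apc.

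Loss of Notchless was next set against the same loss with Apc intact, NlecKO against Control of day 2, to ask where the response depends on Apc. With Apc intact 1214 genes (7.33%) were higher and 1367 (8.26%) lower. Of the genes higher with Apc lost, 805 (25%) were also higher with Apc intact, which is 66.3% of the genes higher there. Of the genes lower with Apc lost, 901 (35.3%) were also lower with Apc intact, or 65.9% of those. The difference of the 2 effects, which uses all 12 libraries, was called for 545 genes (3.29%) as positive and 323 (1.95%) as negative. Of these 868, 62.8% were positive, against 37.4% under the stricter filter and 39.6% with only the libraries of day 2 fitted, with the median difference of all genes at 0.04, -0.05 and -0.05. Leaving out 1 library gave 374 to 1222 calls, with 452 and 499 without ApccKO replicates 1 and 3, 564 and 374 without double-knockout replicates 2 and 3, and 527 and 492 without Control replicates 1 and 3.

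Most genes of the p53 lists were not called for the difference between the settings, but those called all had a larger effect with Apc lost. The medians of the arrest, death and metabolism lists were 2.32, 1.41 and 1.58 with Apc lost, and 1.55, 0.998 and 0.923 with Apc intact. Called or not, the difference was positive for 9 of 13, 7 of 12 and 12 of 16 genes, and negative for 4, 5 and 4. Of 13 arrest and feedback genes 0 differed by edgeR (5 before adjustment and 3 by DESeq2, all more positive with Apc lost), and of the death and metabolism lists 3 of 12 and 3 of 16 were larger with Apc lost, against 3.29% of all genes. Cdkn1a changed by 2.94 ± 0.22 with Apc lost and 2.01 ± 0.21 with Apc intact (difference 0.93 ± 0.29, adjusted p = 0.067). Dcxr changed by 2.91 ± 0.15 and 1.48 ± 0.14 (difference 1.43 ± 0.19, adjusted p = 0.00032). Fas, Perp, Ei24, Polk and Ercc5 were the others with a larger effect (differences 1.64, 0.85, 0.57, 0.90 and 1.09). Of 40 division genes 33 fell with Apc intact and 34 with Apc lost, and 0 of 40 differed by edgeR (3 before adjustment and 0 by DESeq2). Of 43 S phase genes 22 fell with Apc intact and 41 with Apc lost (medians -0.45 and -0.91). By edgeR 2 of them differed and by DESeq2 10, all more negative with Apc lost, against 1.95% of all genes by edgeR. Before adjustment 25 S phase genes were more negative and 1 more positive. These counts do not show that the effects were equal.

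Stem cell markers were the list with the most differences: 11 of 20 were more negative with Apc lost, against 1.95% of all genes. Lgr5 changed by -2.57 ± 0.26 with Apc lost and by -0.56 ± 0.26 with Apc intact (difference -2.01 ± 0.36, adjusted p = 0.0043), and its mean levels were 36.1 CPM in the double knockout, 216 CPM in ApccKO, 20.6 CPM in NlecKO and 30.2 CPM in Control crypts. Olfm4 changed by -2.39 ± 0.25 and -1.002 ± 0.24 (difference -1.39 ± 0.34, adjusted p = 0.023). Slc12a2, Msi1, Igfbp4, Cdca7 and Aqp4 differed in the same direction (differences -0.83, -1.04, -1.64, -0.78 and -1.30). On the goblet list 5 of 18 differed, all more positive with Apc lost, against 3.29% of all genes. Muc2 changed by 1.29 ± 0.14 and 0.12 ± 0.14 (difference 1.17 ± 0.19, adjusted p = 0.0016). Tff3, Fcgbp, Agr2 and Zg16 were the other 4 (differences 1.19, 1.49, 0.67 and 1.38). Goblet marker sums were 12328 to 14246 CPM in NlecKO and 11949 to 13792 CPM in Control crypts, above both groups that had lost Apc.

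Among called genes with a mean of at least 5 CPM over the 12 libraries compared, provisional symbols apart, the largest positive differences were those of Sco2, whose level is uncertain, the gasdermin gene Gsdmc2, the leukotriene receptor genes Ltb4r2 and Ltb4r1, and Alox5. Gsdmc2 fell with Apc intact, to a mean of 3.85 CPM in NlecKO against 54.8 CPM in Control crypts (-3.78 ± 0.51). With Apc lost it lay under 1 CPM in all 6 libraries and was not called (1.30 ± 0.72, adjusted p = 0.17). It shares 63.9% of its words with other gasdermin C genes. Ltb4r1 had 8.35, 9.60 and 12.6 CPM in double-knockout crypts, against 0.434, 0.496 and 0.465 CPM in ApccKO crypts (4.19 ± 0.46, adjusted p = 1.9e-06), against 0.78 ± 0.38 with Apc intact (difference 3.42 ± 0.59, adjusted p = 0.0026), and Ltb4r2 differed by 3.48 ± 0.59, adjusted p = 0.0027. On the negative side stood H19 (-5.005 ± 1.21, adjusted p = 0.023), Cym (-4.69 ± 0.79, adjusted p = 0.0028), Nos2 (-3.48 ± 0.97, adjusted p = 0.045), Slit2 (-2.48 ± 0.28, adjusted p = 4.6e-05) and Etv4 (-2.31 ± 0.41, adjusted p = 0.0041). Slit2, a guidance ligand, had 3.82, 3.54 and 3.48 CPM in double-knockout crypts, against 13.1, 9.47 and 9.81 CPM in ApccKO crypts and rose with Apc intact (0.93 ± 0.20). Etv4, an ETS factor, rose with Apc intact (2.72 ± 0.31) and was not called with Apc lost (0.42 ± 0.28, adjusted p = 0.26). Nos2 lost the difference in 12 of 21 alternatives (adjusted p up to 0.15), and H19 in 4 (up to 0.075).

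**Figure D4:**
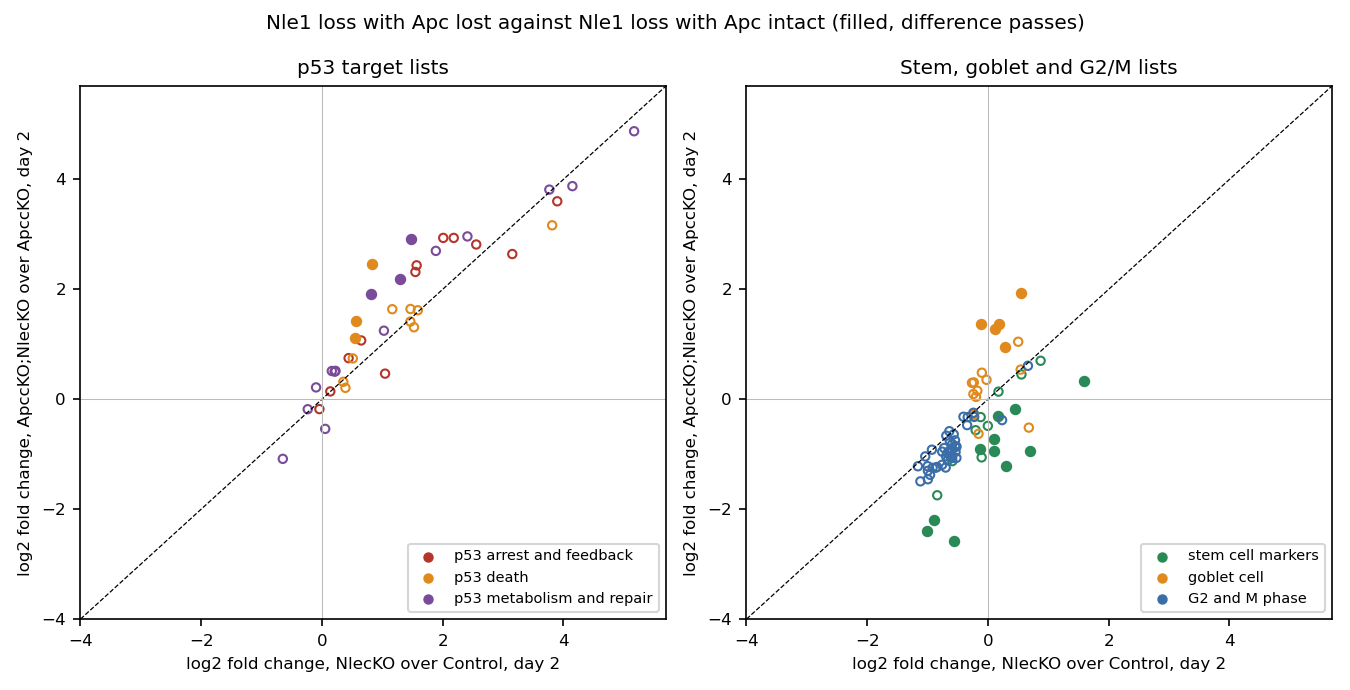
Each point is a gene of the p53 lists (left panel) or of the stem cell, goblet and G2 and M phase lists (right panel), placed by its log2 fold change for Nle1 loss with Apc intact (horizontal, NlecKO over Control) and with Apc lost (vertical, double knockout over ApccKO), both on day 2, filled where the difference was called, with a dashed line of equal effects. Lgr5 lies at -0.56 with Apc intact and -2.57 with Apc lost, under the line, and Muc2 at 0.12 and 1.29, above it.

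The same contrast on day 1 asked how the response stood a day earlier. On day 1, 972 genes (5.87%) were higher and 790 (4.77%) lower. Of the genes higher on day 2, 844 (26.2%) were also higher on day 1, which is 86.8% of the day 1 genes, and of the lower genes 696 (27.3%, and 88.1% of those of day 1). The difference between the days was called for 40 genes (0.242%) as positive and 32 (0.193%) as negative (55.6% positive, against 35.6% under the stricter filter), a count that ran from 5 to 308 over the alternatives and from 8 to 134 with 1 library left out. Of day 2, it was 27 without ApccKO replicate 1, 8 without ApccKO replicate 3, 20 without double-knockout replicate 2 and 9 without replicate 3. Of day 1, it was 20 without ApccKO replicate 2, 34 without ApccKO replicate 3, 24, 37 and 134 without double-knockout replicates 1, 2 and 3. Goblet markers Muc2 and Tff3 were called on day 2 (1.29 ± 0.14 and 1.38 ± 0.12) and lay at 0.20 ± 0.14 and 0.17 ± 0.11 on day 1 (differences 1.09 ± 0.19, adjusted p = 0.016 and 1.21 ± 0.16, adjusted p = 0.0027). Krt15 changed by 4.77 ± 0.28 on day 2 and 1.23 ± 0.24 on day 1 (difference 3.54 ± 0.36, adjusted p = 6.4e-05). Ccng1 and Ephx1, both p53 targets, and Dcxr had larger effects on day 2 (differences 1.22, 1.18 and 0.99). The hormone gene Gip had 1.65 ± 0.16 on day 2 and 0.27 ± 0.15 on day 1 (difference 1.37 ± 0.22, adjusted p = 0.011). Besides Krt15, the largest positive differences among called genes with a mean of at least 5 CPM over the 12 libraries, provisional symbols apart, were those of Sco2, Cyp2e1, Ces2g and Fyb (Cyp2e1 1.86, Ces2g 1.79 and Fyb 1.74). On the negative side were Cym (-4.07), Fstl4 (-2.70), Cap2 (-2.46), Gkn3 (-2.45) and Tnfrsf11b (-2.21), the decoy receptor of RANK ligand. Of the 10 genes named for this difference, Krt15 kept its call in every alternative run, and the other 9 lost it in 2 to 16 of 20. Among them Fyb lost it in 16 and Gkn3 in 13. For Muc2, Tff3, Gip, Ccng1, Ephx1 and Dcxr the alternatives of this difference were not read gene by gene. In the day 1 libraries ApccKO replicates 2 and 3 and double-knockout replicate 3 stood apart by low counts of Gm8730 and Gm9625, and 5 genes were called without them, in a fit with 1 ApccKO library of day 1 whose spread is taken from the other groups.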

How the data were processed

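RNA of jejunal crypts was sequenced in 24 mice, 3 in each of 8 groups. The deposited estimated counts per gene were made by the authors with kallisto 0.43, per the submitters' processing notes. The deposited TPM table, scaled per transcript length, was computed by the authors. The notes also name mm9, DESeq and DESeq2. Neither the annotation release nor the way transcripts were summed is given in the sources used here. Estimated counts were rounded to whole numbers. Genes were filtered with filterByExpr (minimum count 10), scaled by TMM and fitted with edgeR 4.0.16 (R 4.3.3, robust quasi-likelihood, group means over all 24 libraries, prior count 2), with Benjamini-Hochberg adjustment over 16552 genes. CPM were computed from the same counts. The common biological coefficient of variation was 17.6%. Totals were 17.86 to 26.47 M counts. The script was tested on simulated data.

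Alternatives were DESeq2 1.42.0, its size factors, no low-count filter, a stricter one (2 CPM in at least 3 libraries), a replicate block, only the libraries compared, and each library left out. Named genes were the 12 most raised and lowered and the 5 with the largest CPM change each way among called genes of at least 5 CPM without overlap between groups, 5 each way for each difference, and up to 4 of smallest p on each list. The members and lists were chosen with earlier results of these data known. Shared 31-base words and exon overlap come from GENCODE M21 transcripts. P-values measure only the spread between these mice. Some members of the lists are not reported here by name.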

Additional observations from a re-analysis of the deposited data

Results flagged for a closer look

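For 41 of the genes picked by the rule for named genes, with Sco2 left aside because it is listed at 0 in ApccKO crypts of day 2, the effect of Notchless loss on day 2 differed between mice that had lost Apc and mice that kept it, by edgeR's quasi-likelihood test of the difference itself (adjusted p under 0.05). The values are differences of log2 fold changes, with Apc lost minus with Apc intact. The effect was more positive with Apc lost for Gsdmc2 (5.09), Rgs5 (4.42), Ces2f (3.65), Ltb4r2 (3.48), Ltb4r1 (3.42), Alox5 (3.41), Axl (2.74), Krt15 (2.63), Ces2g (2.62), C1qa (2.58), Tap1 (1.74), Ptgs1 (1.56), Fcgbp (1.49), Dcxr (1.43), Itgam (1.27), Tff3 (1.19), Muc2 (1.17), Ercc5 (1.09), Gip (0.99), Polk (0.90), Egfr (0.88), Mxd4 (0.88), Perp (0.85), Agr2 (0.67) and Ei24 (0.57). It was more negative with Apc lost for H19 (-5.00), Cym (-4.69), Nos2 (-3.48), Tnfrsf11b (-3.38), Slit2 (-2.48), Etv4 (-2.31), Gkn3 (-2.19), Lgr5 (-2.01), Cap2 (-1.97), Snn (-1.94), Vwa2 (-1.68), Olfm4 (-1.39), Aqp4 (-1.30), Lfng (-0.92), Slc12a2 (-0.83) and Ppat (-0.83). Gsdmc2 lay under 1 CPM in all 6 libraries that had lost Apc and fell with Apc intact. For this difference the alternatives were read gene by gene only for Alox5, Cym, Etv4, Gsdmc2, H19, Ltb4r1, Ltb4r2, Nos2, Slit2 and Sco2.

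For 19 of the genes picked by that rule, again without Sco2, the effect of Notchless loss with Apc lost differed between the days by the same test, given as day 2 minus day 1. It was more positive on day 2 for Krt15 (3.54), Alox5 (2.82), Cyp2e1 (1.86), Ces2g (1.79), Fyb (1.74), Sst (1.53), Gip (1.37), Ccng1 (1.22), Tff3 (1.21), Ephx1 (1.18), Muc2 (1.09), Dcxr (0.99) and Agr2 (0.94). It was more negative on day 2 for Cym (-4.07), Fstl4 (-2.70), Cap2 (-2.46), Gkn3 (-2.45), Tnfrsf11b (-2.21) and Lgr5 (-1.64). The alternatives were read gene by gene only for the 10 genes named for this difference. Alox5, Sst, Gip, Ccng1, Tff3, Ephx1, Muc2, Dcxr, Agr2 and Lgr5 were not among them, so how far their day differences hold was not tested.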

How the results depend on the processing

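The count of genes called for Notchless loss with Apc lost on day 2, 5775, stayed within 1.5 times under every alternative run, between 4277 and 5040 with 1 library left out and up to 6769 with only the libraries compared fitted. For the difference from Apc intact, leaving out 1 library gave 374 to 1222 genes against 868, and for the difference between the days 8 to 134 against 72. The day difference was also 308 by DESeq2, 113 with a term for sex and 5 without 3 libraries of day 1, and the cause was not tested. The term for sex and the fits without those 3 libraries or with only the libraries of day 2 were chosen after seeing the data. With a replicate block the counts were 5657, 778 and 62. Deviations of same-numbered libraries from their group means correlated at 0.070, -0.059 and -0.005, and those of other-numbered libraries at -0.087 to 0.083. With 3 libraries a group these values cannot show whether the replicate numbers pair the mice. In both groups replicate 1 was male and replicates 2 and 3 were female. The 134 genes named for the main comparison had 2007 values over the alternatives. Of these genes 10 lost their call in at least 1 alternative, among them Bst2, Col1a1, Col3a1, Klrd1, Mep1b, Mttp, Ppat, Sis and Sprr2a2. None that was called reversed. A change of sign in a gene called in neither fit was not counted. Most of the genes were picked for a small p or a large change in these data, so reversals were unlikely from the start. Of 810 counts of list members, 99 moved by more than 1.5 times. No alternative moved the median log2 fold change of all genes by more than 0.1. With 3 mice a group, exact permutation tests of a single value cannot go below p = 0.1.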
